A study of Mus musculus with 24 samples.

Results

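Replication-dependent histone genes were followed here as 70 mouse genes whose GENCODE M21 symbols begin with Hist1h, Hist2h, Hist3h or Hist4h, of which 67 are protein-coding, 2 are processed pseudogenes and 1 is an unprocessed pseudogene. Their promoters were represented by the 36 peaks, of 65483 in the consensus table, that lay within 1000 bp of the annotated 5′ end of such a gene. These peaks covered 62 of the 70 genes, and all 36 overlapped a transcription start site (TSS). Open chromatin was read by ATAC-seq, an assay whose transposase places sequencing adapters where DNA is exposed, in GC B cells sorted from the spleens of 17 mice 10 days after immunization with sheep red blood cells (SRBC). All mice carried 1 Cre allele at the Cg1 (IgG1 constant region) locus, which is active in B cells responding to antigen. The 4 WT mice carried the Cre allele alone, the 4 C mice also carried Crebbp fl/+, the 4 K mice Kmt2d fl/+, and the 5 CK mice both floxed alleles, so each mutation removed 1 copy of a gene and only in cells in which Cre had acted. Mice were 8 weeks old, and each library was made from 60000 sorted cells of a single mouse.

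Replication-dependent histone genes supply the bulk of the proteins that package newly made DNA. They are transcribed mainly in S phase, lack introns, and yield messenger RNAs that end in a stem loop rather than a poly(A) tail. Most lie in clusters that gather in a nuclear structure called the histone locus body, together with the coactivator NPAT. Core histones H2A, H2B, H3 and H4 form the nucleosome, and H1 binds the linker DNA between nucleosomes. GC B cells are among the fastest dividing cells of an adult animal. CREBBP acetylates histones and KMT2D methylates lysine 4 of histone H3, mainly at enhancers.

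On mm10 the peaks fell into 6 loci. The Hist1 genes formed a block A of 12 peaks on chromosome 13 (chr13:21714873-22044384), a block B of 15 peaks further along it (chr13:23530302-23764009), and the lone gene Hist1h2al (chr13:51202151-51203260). The Hist2 locus held 5 peaks (chr3:96219294-96270435), Hist3 held 2 (chr11:58948152-58955426) and Hist4 a single peak over Hist4h4 (chr6:136803367-136805222). By family, peaks covered 4 of 6 H1 genes, 17 of 20 H2a genes, 16 of 19 H2b genes, 12 of 12 H3 genes and 13 of 13 H4 genes. Many of the genes are arranged in divergent pairs that share a promoter, so 1 peak often stood for several genes, and 24 of the 36 peaks were also within 1000 bp of a gene outside the list. In 2 of these the other gene was protein-coding (Trim17 and Bola1).

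The 8 genes without a peak were Hist1h2bq, Hist1h2ao, Hist1h2ap, Hist1h2br, Hist1h1d, Hist1h1t, Hist1h2ba and Hist1h2aa. The nearest peak to their annotated 5′ ends lay between 1032 bp (Hist1h2ao) and 3124 bp (Hist1h2aa) away. Hist1h1t, Hist1h2ba and Hist1h2aa are known as testis histones. Hist1h1d is a special case: its GENCODE 5′ end was 1059 bp from the nearest peak. A different peak (chr13:23554929-23556572) covered the start RefSeq gives for the same gene (H1f3).

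Promoter sequences were taken from RefSeq (GRCm38.p6) for 62 of the 70 genes. The promoters of 6 genes are shown as the 250 bases before the TSS, 5′ to 3′ on the gene's strand, because they stand for peaks described in the comparisons: Hist1h2bh, Hist1h2ab, Hist1h4a and Hist1h1a belong to the Hist1 peaks with the smallest p in CK, Hist3h2ba had the smallest p in K, and Hist4h4 had the smallest p between K and C. Capitals mark matches, on either strand, to TATAAA (the TATA box), to the CCAAT element and to the octamer ATGCAAAT. They also mark AAACACA (an H1 gene element) and the E2F-like words TTTCGCGC or TTTGGCGC or TTTCCCGC. The windows are chr13:23543445-23543694 (minus strand) for Hist1h2bh, chr13:23750838-23751087 (plus) for Hist1h2ab, chr13:23761250-23761499 (minus) for Hist1h4a, chr13:23763418-23763667 (plus) for Hist1h1a, chr11:58948661-58948910 (plus) for Hist3h2ba and chr6:136804432-136804681 (minus) for Hist4h4.
Hist1h2bh: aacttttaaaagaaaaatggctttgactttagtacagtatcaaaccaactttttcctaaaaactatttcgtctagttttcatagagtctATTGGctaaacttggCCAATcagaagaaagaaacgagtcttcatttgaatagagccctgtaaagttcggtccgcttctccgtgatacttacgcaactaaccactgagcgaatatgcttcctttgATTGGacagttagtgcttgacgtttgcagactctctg
Hist1h2ab: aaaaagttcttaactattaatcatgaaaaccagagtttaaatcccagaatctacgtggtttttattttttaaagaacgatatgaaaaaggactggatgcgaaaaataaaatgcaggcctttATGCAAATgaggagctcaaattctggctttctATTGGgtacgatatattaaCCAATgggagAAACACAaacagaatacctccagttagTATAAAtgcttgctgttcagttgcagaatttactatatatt
Hist1h4a: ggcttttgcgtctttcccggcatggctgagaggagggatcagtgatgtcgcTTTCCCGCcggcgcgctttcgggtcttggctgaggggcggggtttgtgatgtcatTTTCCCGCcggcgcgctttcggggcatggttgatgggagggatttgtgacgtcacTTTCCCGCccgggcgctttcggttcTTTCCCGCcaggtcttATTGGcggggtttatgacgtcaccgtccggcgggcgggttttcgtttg
Hist1h1a: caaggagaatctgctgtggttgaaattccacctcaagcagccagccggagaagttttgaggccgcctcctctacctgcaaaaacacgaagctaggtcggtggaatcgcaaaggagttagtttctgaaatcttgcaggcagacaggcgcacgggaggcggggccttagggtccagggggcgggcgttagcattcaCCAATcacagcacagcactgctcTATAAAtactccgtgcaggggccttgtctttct
Hist3h2ba: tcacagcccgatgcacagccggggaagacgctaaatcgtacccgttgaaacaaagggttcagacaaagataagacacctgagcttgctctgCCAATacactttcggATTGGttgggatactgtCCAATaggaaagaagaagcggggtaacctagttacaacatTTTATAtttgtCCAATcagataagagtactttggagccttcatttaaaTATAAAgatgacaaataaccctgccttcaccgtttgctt
Hist4h4: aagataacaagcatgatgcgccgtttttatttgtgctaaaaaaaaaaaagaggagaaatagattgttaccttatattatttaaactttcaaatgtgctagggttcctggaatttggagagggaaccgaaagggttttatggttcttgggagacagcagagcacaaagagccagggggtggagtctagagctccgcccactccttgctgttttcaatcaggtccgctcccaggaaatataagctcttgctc

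Hist1h2ab, an H2A gene, held an octamer starting 129 bases before the TSS, CCAAT words at -78 and -97, and a TATAAA at -41. Hist1h1a, a linker histone gene, held CCAAT at -56 and TATAAA at -33. Hist1h4a held no TATAAA in the bases shown but 4 copies of TTTCCCGC, at -199, -144, -89 and -64, and it was the only one of the 62 genes with that word. In the Hist3h2ba window there were 4 CCAAT and 2 TATAAA matches, and in that of Hist4h4 none of the words searched.

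Across the 62 promoters, read from 250 bases before to 50 bases after the TSS, TATAAA was found in 35 (56.5%, against 12.6% of 21262 protein-coding promoters of the same length) and CCAAT in 53 (85.5%, against 38.2%). The families differed in which words they held. All 6 H1, 18 H2a, 16 H2b and 10 H3 promoters held CCAAT, but only 3 of 12 H4 promoters did. The octamer was found in 7 H2a and 6 H2b promoters and in no H1, H3 or H4 promoter (13 in all, 20.97%, against 1.66%). AAACACA was present in 5 of 6 H1 promoters, and in 9 promoters in all (14.5%, against 6.15%). TTTCGCGC occurred in 5 H2a and 4 H2b promoters (14.5%, against 0.452%), and TTTGGCGC in none (0.635% of all). Divergent pairs read the same stretch from both sides, so these promoters are not independent: the 13 octamer promoters lay at 9 peaks. The median GC content of the histone promoters was 45.3%, below the 56.3% of all protein-coding promoters.

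Depth ran from 17483706 to 21857738 fragments in peaks over the 17 libraries, and levels are given as CPM, counts scaled to a common library size after TMM normalization, which sets the bulk of peaks level between libraries. Of lists of marker genes, peaks were found at all 7 GC B and all 5 pan-B genes and at none of 5 T cell genes. Of 5 myeloid genes only Adgre1 had a peak, at 2.32 CPM in WT. Markers of other cells also differed between genotypes: of 4 naive and memory B cell genes with a peak, Fcer2a was lower in K (log2 fold change -0.80) and CK (-0.71). Of erythroid genes, Hbb-bt stood against WT at -1.12 in C, -0.59 in K and -1.06 in CK, and Epor at 0.13, 0.090 and 0.19. The part of these in the histone results was not tested. Peaks over Crebbp summed to between 41.3 and 51.9 CPM in every library and those over Kmt2d to between 120 and 136 CPM, with 0 of the 9 peaks called in C, K or CK, so accessibility gave no check of the genotype labels. Although the study describes female mice, 9 libraries held 1421 to 1742 fragments in the male-specific part of Y and the other 8 held at most 1. Both kinds occurred in each genotype.

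In WT GC B cells the histone promoters were highly accessible. Per kb of peak they had a median of 43.3 CPM (range 3.98 to 64.6), against 18.4 for the 14806 other peaks within 1000 bp of a TSS, and 13.1% of those others lay above the histone median. The most accessible were Hist1h4h (64.6 CPM per kb), Hist1h4b (62.8), the linker histone gene Hist1h1c (59.0), Hist1h4c (55.3), the peak shared by Hist1h2ak and Hist1h2bn (53.0) and that of Hist1h2af and Hist1h3g (51.6). H4 genes therefore held 3 of the 6 highest values. The lowest were Hist1h2al (3.98), Hist1h4n (10.5), Hist1h4m (14.2), the Hist2h3c2 and Hist2h2aa2 peak (15.4), the Hist2h2aa1 and Hist2h3c1 peak (20.1) and Hist3h2ba (29.6).

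Near-identical copies bear on the low end. In the 5 lowest peaks, and in no other histone peak, more than 50% of the 50-base words occurred more than once in mm10, so that short reads from them cannot be placed with certainty and their levels and fold changes are uncertain. The 31 other peaks ranged only from 29.6 to 64.6 CPM per kb.

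**Figure D1:**
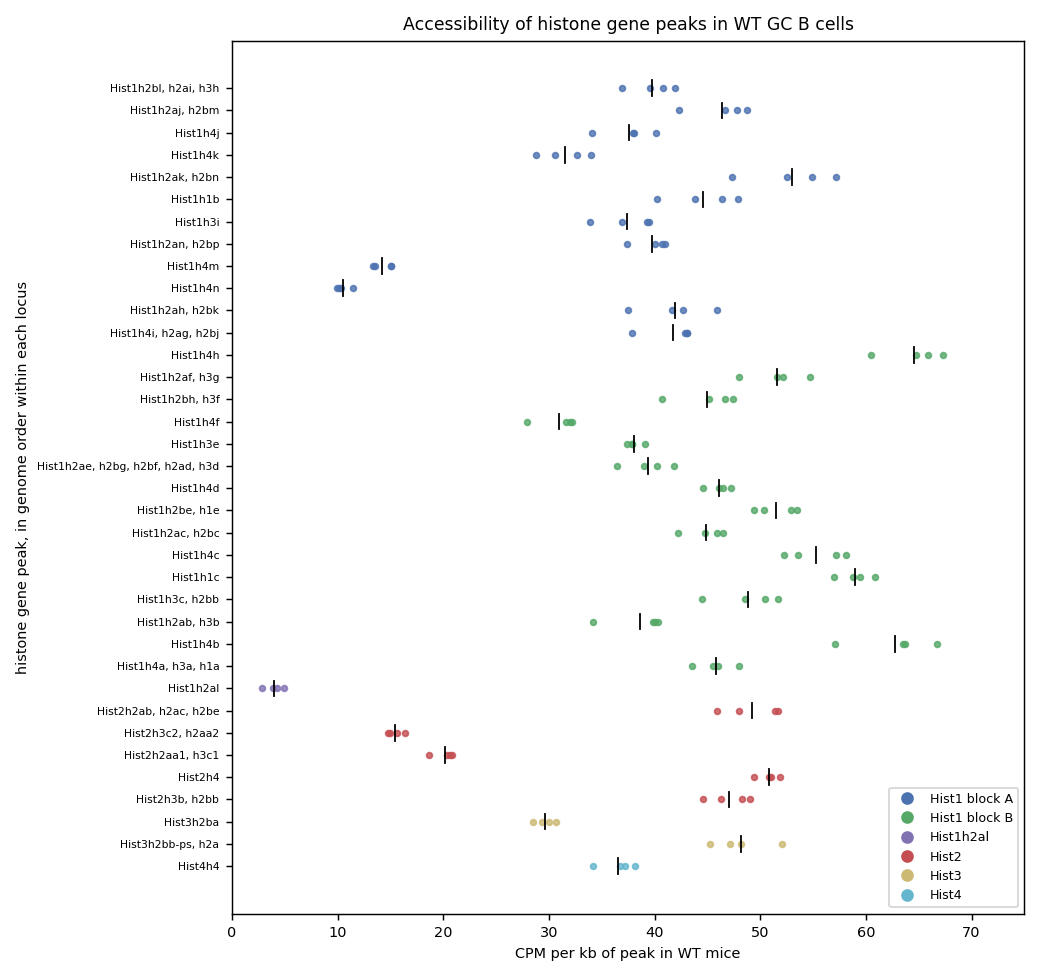
Accessibility of the 36 histone gene peaks in WT mice, as CPM per kb of peak. Most peaks lie between 29.6 and 64.6, and Hist1h2al, at 3.98, is the lowest.

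The first question was whether loss of 1 copy of Crebbp, of Kmt2d, or of both altered accessibility at the histone genes. In C mice the histone peaks lay slightly below WT almost throughout, with a median log2 fold change of -0.11 and 35 of 36 peaks below 0. In K mice they sat at the WT level (median -0.0020, 19 of 36 below 0). In CK mice they lay about as far below WT as in C (median -0.11, 32 of 36 below 0). None of the 36 peaks passed an adjusted p of 0.01 (edgeR's quasi-likelihood test, p-values adjusted by Benjamini and Hochberg's method across the 65483 peaks), so these shifts are described and not called. Medians over all peaks were within 0.0029 of 0 in each of the 3 comparisons, and those over other promoters were -0.012 for C, 0.056 for K and 0.058 for CK. Peaks of GC B marker genes had medians of -0.11 in C, -0.048 in K and -0.10 in CK and the pan-B peaks of -0.060, -0.048 and -0.091, with 0 called, and their part in the histone shift was not tested. With loess offsets the histone median was -0.067 in C and -0.11 in CK, so how near C and CK lay to each other depended on the scaling. In bulk libraries a lower signal in each cell and fewer cells with an open promoter cannot be told apart.

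Against the background the counts read as follows. At an adjusted p of 0.01, 0.16% of all peaks were called in C, 1.48% in K and 6.84% in CK, and 0 histone peaks in each. DESeq2 also called 0 histone peaks in C and K but 3 lower in CK. At an unadjusted p under 0.05, 18 histone peaks were lower and 0 higher in C, where 4.26% of all peaks were lower. In CK 22 were lower (14.2% of all peaks) and 2 higher (14.7% of all peaks), and in K 5 were higher (10.2% of all peaks) and 0 lower. These counts were not stable. The 18 in C became 8 without WT replicate 4, 6 with loess offsets and 5 with the share of fragments on Y as a covariate. They became 27 without WT replicate 1 and 24 with the replicate number as a block. The 22 in CK became 14 without WT replicate 2, 13 without WT replicate 4, 12 without CK replicate 3 and 7 with the Y share as a covariate. With a 0/1 covariate for Y-specific fragments, chosen after seeing the data, the counts were 19 in C and 22 in CK. The Y share itself differed between genotypes, with a mean of 0.034% in WT and 0.075% in C. It was largest (0.101%) in C replicate 4, which held 1 Y-specific fragment. The 5 in K became 2 without WT replicate 1, K replicate 1 or K replicate 2 and 3 without WT replicate 3, C replicate 2, 3 or 4 or K replicate 3, and the 2 higher in CK became 1 without WT replicate 3 or CK replicate 1.

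At the looser adjusted p of 0.05, 10 histone peaks were lower in CK (7.54% of all peaks) and 1 was higher (7.85%), 1 was higher in K (2.57%), and 0 passed in C. All 10 lower peaks belonged to the Hist1 blocks. Single libraries decided the CK count at 0.01: it was 6 without WT replicate 1, 4 without CK replicate 5, 2 without C replicate 3, C replicate 4, K replicate 1 or K replicate 2, and 1 without CK replicate 4. The 10 lower peaks at 0.05 rested on single mice too: the count was 18 without WT replicate 1, 6 without WT replicate 2, 3 without WT replicate 3, 0 without WT replicate 4, 5 without CK replicate 1 and 4 without CK replicate 3. It was 6 when only the genotypes compared were fitted and 0 with the Y share as a covariate. The 1 higher peak in CK was lost without WT replicate 3, WT replicate 4 or CK replicate 2, and that in K without WT replicate 3, WT replicate 4 or K replicate 1, 3 or 4, while without WT replicate 2 there were 2 in K. Leaving out mice at these looser thresholds, and at the counts of separated groups given for single peaks, was chosen after seeing the data.

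**Figure D2:**
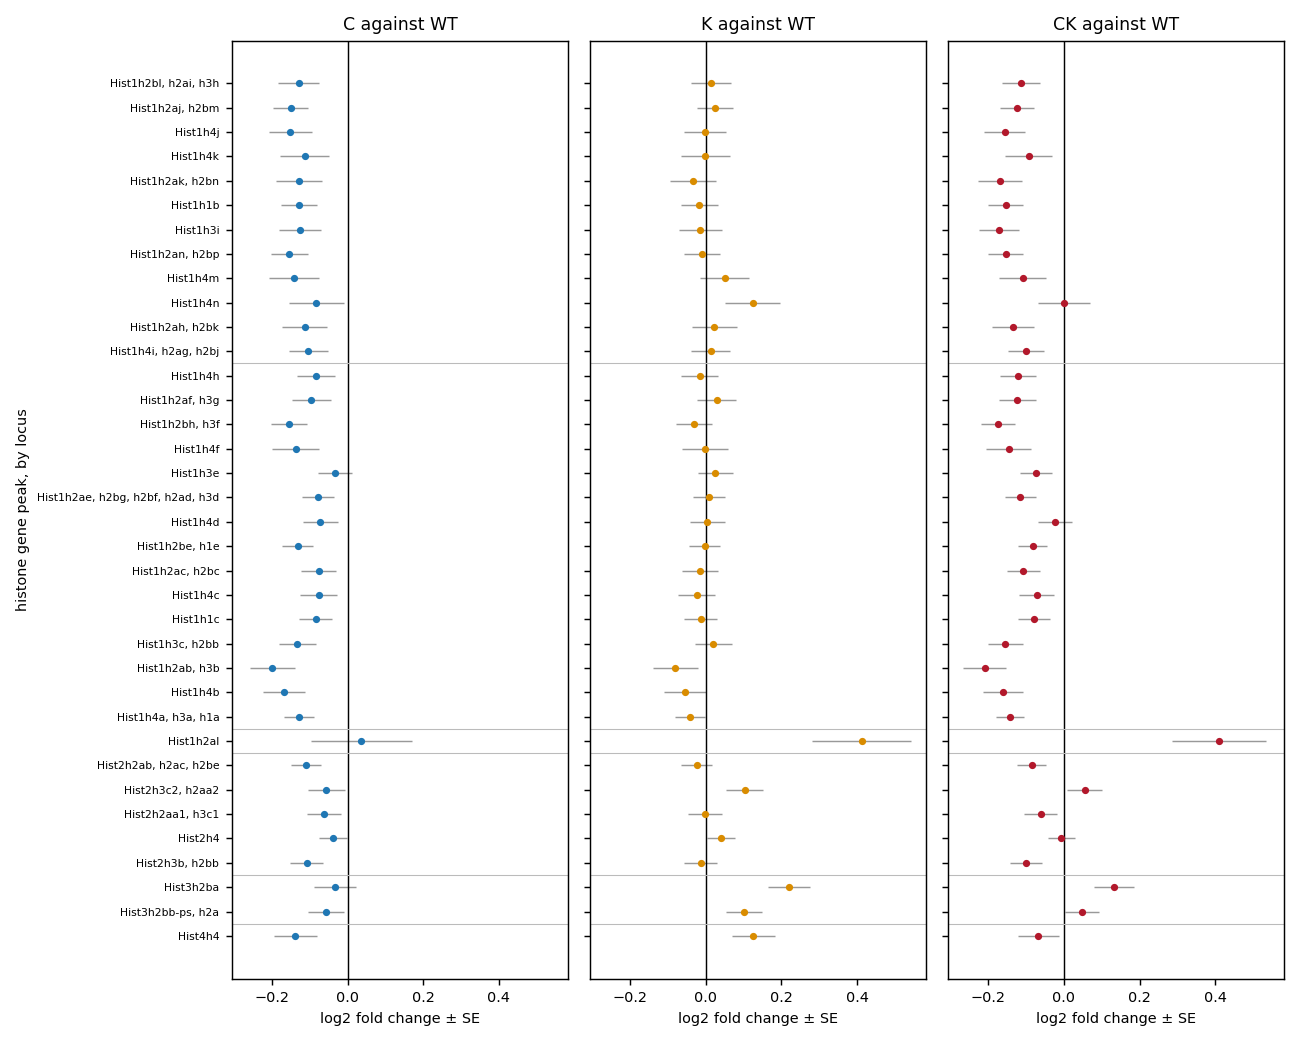
Log2 fold change ± SE of each histone gene peak for C, K and CK against WT (edgeR, 4 WT, 4 C, 4 K and 5 CK mice). In C and CK most points lie left of 0, with medians of -0.11 in both, and in K they scatter around 0, with Hist1h2al and Hist3h2ba to the right.

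Within the Hist1 blocks the peaks pointed 1 way in C and CK. Block A had median log2 fold changes of -0.13 in C, 0.0053 in K and -0.13 in CK, while block B of -0.096, -0.013 and -0.12. All 27 peaks of both blocks were below 0 in C and in CK, between -0.15 and -0.083 in C and -0.17 and -0.00089 in CK in block A, and between -0.20 and -0.034 and between -0.21 and -0.023 in block B. At Hist2 the medians were smaller, at -0.063, -0.0019 and -0.062.

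The values of single mice show how far the genotypes overlap. Summed over the 27 Hist1 peaks of both blocks, the WT mice had 2319, 2531, 2553 and 2593 CPM and the C mice 2285, 2305, 2251 and 2391. The K mice had 2494, 2455, 2510 and 2504 CPM, and the CK mice 2215, 2263, 2154, 2422 and 2416. K was tight and lay wholly above both C and CK. C overlapped WT only through WT replicate 1, the lowest of its group, and CK replicates 4 and 5 lay between WT replicate 1 and the other 3 WT mice.

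The mean of the WT mice was 2499 CPM with an SD of 123 (n = 4). The C mice averaged 2308 (SD 59.3, n = 4), the K mice 2491 (SD 24.7, n = 4) and the CK mice 2294 (SD 120, n = 5). No p is given for such a sum over chosen members. WT replicate 1 also had the largest share of fragments in mitochondrial peaks (1.81%, against 0.769% to 1.31% in the other 16 libraries). The part of that share in its low histone signal was not tested. Without WT replicate 1 the median log2 fold change over the 36 peaks was -0.15 for C, -0.030 for K and -0.14 for CK.

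**Figure D3:**
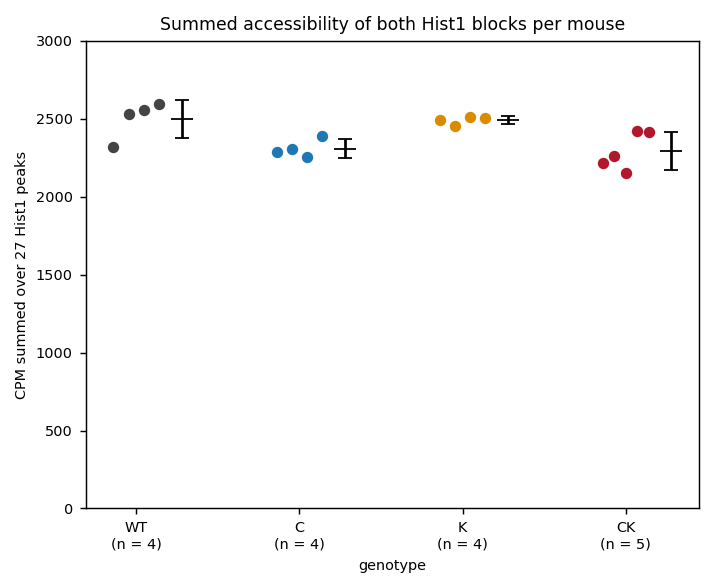
CPM summed over the 27 peaks of both Hist1 blocks in each mouse, by genotype, with the mean and SD. The K mice, at 2455 to 2510, lie above all C and CK mice, and 1 WT mouse, at 2319, lies below the other 3.

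Within a mouse the Hist1 peaks deviated together. Taking each peak's log2 CPM relative to its WT mean, the SD over the 27 peaks was between 0.038 and 0.083 in every mouse, whereas over the other promoters it was between 0.15 and 0.34. The Hist1 peaks hold many fragments and thus little counting noise, whose part in this was not tested. The mean over the 27 peaks ranged from -0.21 (CK replicate 3) to 0.053 (WT replicate 4). In the C mice 25 to 27 of the 27 peaks were below their WT mean, and in the CK mice 19 to 27.

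**Figure D4:**
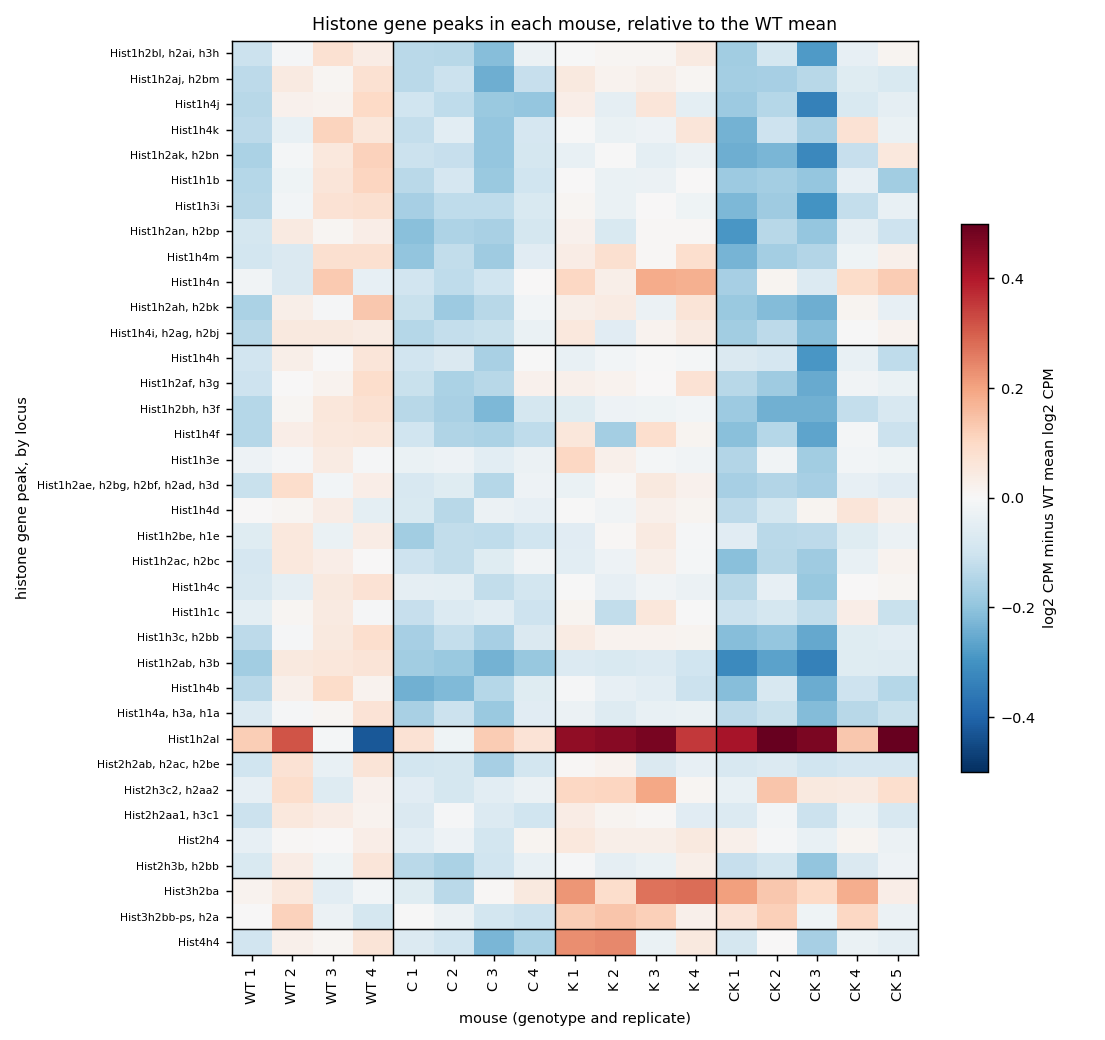
Log2 CPM of each histone gene peak in each mouse relative to the WT mean, with peaks in rows by locus and mice in columns by genotype. Columns differ more than rows within the Hist1 blocks (C and CK mostly low, WT replicate 1 low), and the colour scale ends at 0.5 on either side, which Hist1h2al exceeds.

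Linker histone genes were represented by Hist1h1a, Hist1h1b, Hist1h1c and Hist1h1e. The peak of Hist1h4a, Hist1h3a and Hist1h1a (chr13:23760208-23764009), which covers an H4, an H3 and an H1 gene, had 166, 173, 175 and 183 CPM in WT and 155, 161, 153 and 167 in C. It had 170, 166, 169 and 170 CPM in K and 159, 161, 150, 158 and 161 in CK. No CK mouse reached the lowest WT mouse, and this was the only histone peak so separated (6.39% of all peaks were separated in this direction, and 6.59% in the other, which held for 0 histone peaks). Without WT replicate 1, 20 histone peaks were wholly below WT, and without CK replicate 4 there were 4, while 2 were wholly above WT without WT replicate 2 and 1 without CK replicate 4 or 5. The log2 fold change in CK was -0.14 ± 0.037 (SE) with an adjusted p of 0.0107, just over the threshold. In C it was -0.13 ± 0.039 (adjusted p = 0.214) and in K -0.042 ± 0.039 (adjusted p = 0.598).

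Hist1h1e shares its peak with the H2B gene Hist1h2be (chr13:23620742-23623026). There the WT mice had 113, 122, 115 and 121 CPM and the C mice 104, 108, 108 and 110, without overlap. The log2 fold change was -0.13 ± 0.040 (SE, adjusted p = 0.205) in C and -0.083 ± 0.038 in CK (adjusted p = 0.148). Only 3 histone peaks were wholly below WT in C (2.77% of all peaks), the others being Hist1h1c and the Hist1h2an and Hist1h2bp pair, but 27 were without WT replicate 1, 10 without C replicate 4 and 5 without C replicate 1. Hist1h1c had group means of 119, 112, 118 and 113 CPM in WT, C, K and CK, and Hist1h1b of 85.8, 78.5, 84.8 and 77.1 CPM. Hist1h1b had an adjusted p of 0.0242 in CK (log2 fold change -0.15 ± 0.046 SE).

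Among core histone genes, the peak of the H2A gene Hist1h2ab and the H3 gene Hist1h3b (chr13:23750985-23753060), both on the plus strand, was furthest below WT in both C and CK. It had 70.9, 82.8, 83.1 and 83.7 CPM in WT and 70.9, 70.2, 67.8 and 70.1 in C. The K mice had 76.2, 75.9, 76.3 and 74.7 CPM, and the CK mice 64.001, 66.4, 63.2, 76.7 and 76.5. The C mice were lower than 3 of the 4 WT mice, and in CK 3 mice were lower than all WT and K mice while the other 2 were not. Log2 fold changes were -0.20 ± 0.060 in C (SE, adjusted p = 0.197), -0.081 ± 0.060 in K (adjusted p = 0.477) and -0.21 ± 0.057 in CK (adjusted p = 0.0134).

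The H2B and H3 pair Hist1h2bh and Hist1h3f (chr13:23542638-23545045) had the smallest p in CK. Its values were 98.01, 109, 113 and 114 CPM in WT, 98.2, 96.7, 92.6 and 102 in C, and 104, 106, 107 and 107 in K. The CK mice had 95.3, 91.5, 91.4, 99.5 and 102 CPM, all below the K mice, and they overlapped WT through WT replicate 1. The log2 fold change in CK was -0.17 ± 0.045 (SE, adjusted p = 0.0105), in C -0.16 ± 0.048 (adjusted p = 0.216) and in K -0.032 ± 0.048 (adjusted p = 0.761). Of the H4 genes with a peak of their own, Hist1h4b was at 42.7 ± 2.76 CPM in WT (SD, n = 4), 38.1 ± 2.18 in C (n = 4), 41.2 ± 1.21 in K (n = 4) and 38.3 ± 1.88 in CK (n = 5), with an adjusted p of 0.0409 in CK and 0.632 in K.

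Only 4 histone peaks lay above 0 in CK and only 1 in C, and none of these was in the Hist1 blocks. Hist1h2al, an H2A gene far from the clusters, had 4.74, 5.43, 4.31 and 3.21 CPM in WT and 4.58, 4.29, 4.75 and 4.57 in C. It had 5.94, 6.003, 6.07 and 5.58 CPM in K and 5.81, 6.57, 6.06, 4.78 and 6.28 in CK. All K mice were above all WT mice, and CK replicate 4 was the CK mouse that overlapped WT. Log2 fold changes were 0.41 ± 0.13 in K (SE, adjusted p = 0.0631), 0.41 ± 0.12 in CK (adjusted p = 0.0254) and 0.036 ± 0.13 in C (adjusted p = 0.967). It is the weakest histone peak and consists mostly of repeated words, as given above.

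The Hist3 locus holds an H2A gene, an H2B gene and an H2B pseudogene. Hist3h2ba (chr11:58948152-58949398), the H2B gene, had 37.4, 38.3, 35.6 and 36.5 CPM in WT and 35.4, 33.7, 37.1 and 38.2 in C. It had 43.0, 39.2, 44.6 and 44.9 CPM in K and 42.6, 40.5, 39.6, 41.9 and 37.8 in CK. The K mice were all above WT, as at Hist1h2al and at no other histone peak (5.42% of all peaks), and 1 CK mouse overlapped WT. Without K replicate 4 there were 4 such peaks, and without WT replicate 1, 5 were wholly below WT in K, against 0 with it. The log2 fold change was 0.22 ± 0.055 in K (SE, adjusted p = 0.0209), 0.13 ± 0.053 in CK (adjusted p = 0.0897) and -0.035 ± 0.056 in C (adjusted p = 0.908). The neighbouring peak of Hist3h2a and the pseudogene Hist3h2bb-ps had means of 87.1, 83.6, 93.5 and 90.03 CPM in WT, C, K and CK, with a log2 fold change of 0.10 ± 0.048 in K (adjusted p = 0.230) and 0.047 ± 0.045 in CK (adjusted p = 0.536).

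Hist4h4, which encodes H4 apart from the clusters, had 63.4, 69.0, 68.2 and 70.8 CPM in WT and 64.7, 63.3, 57.9 and 60.7 in C. It had 79.8, 80.2, 66.3 and 70.1 CPM in K and 63.8, 67.8, 60.4, 66.3 and 65.6 in CK. K replicates 1 and 2 stood above all other mice, and K replicates 3 and 4 lay within the WT range. Log2 fold changes were -0.14 ± 0.058 in C (SE, adjusted p = 0.468), 0.13 ± 0.057 in K (adjusted p = 0.211) and -0.068 ± 0.055 in CK (adjusted p = 0.450).

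At Hist2 the 5 peaks differed little between genotypes. The largest, of Hist2h2ab, Hist2h2ac and Hist2h2be, had 124, 139, 129 and 138 CPM in WT and 124, 125, 118 and 124 in C (log2 fold change -0.11, unadjusted p by edgeR's test across all peaks 0.0114). In CK it was -0.085 and in K -0.024. The H3 and H2B pair Hist2h3b and Hist2h2bb was at -0.11 in C and -0.10 in CK, and Hist2h4 at -0.039 and -0.0072. The near-identical H2A and H3 pairs were at -0.057 and 0.055 (Hist2h3c2 and Hist2h2aa2) and at -0.063 and -0.062 (Hist2h2aa1 and Hist2h3c1) in C and CK, and the first of them at 0.10 in K.

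Next, the mutants were set against each other. These comparisons share libraries with those against WT, so they are not independent of them. Between K and C the histone peaks differed in 1 direction throughout, with 36 of 36 higher in K, a median log2 difference of 0.12 and 24 peaks at which every K mouse exceeded every C mouse (5.41% of all peaks). The median over other promoters was 0.062. At an adjusted p of 0.01 edgeR called 0 histone peaks and 0.788% of all peaks, and DESeq2 called 2. At an unadjusted p under 0.05, 23 were higher (8.84% of all peaks) and 0 lower, and the 23 became 15 without C replicate 2, 13 without C replicate 3, 14 with total counts, 8 with loess offsets and 9 with the Y share as a covariate. At an adjusted p of 0.05, 3 were higher (1.69% of all peaks): Hist4h4 (0.26 ± 0.057 SE, adjusted p = 0.0116), Hist3h2ba (0.25 ± 0.055, adjusted p = 0.0118) and the Hist1h2aj and Hist1h2bm pair (0.18, adjusted p = 0.0363). Leaving out K replicate 2, K replicate 3, CK replicate 3 or CK replicate 5 gave 1 call at 0.01, and leaving out C replicate 2, K replicate 1 or K replicate 2 left 1 at 0.05.

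CK lay below K at all 36 peaks, with a median log2 difference of -0.11 against 0.0032 over other promoters. None was called at an adjusted p of 0.01 by edgeR (0.00916% of all peaks were) or DESeq2, and the smallest adjusted p was 0.241. At an unadjusted p under 0.05, 23 histone peaks were lower in CK (3.21% of all peaks) and 0 higher, with 13 lower without CK replicate 3 or with the Y share as a covariate. At 10 of the 36 histone peaks every CK mouse was below every K mouse (0.82% of all peaks), 9 in the Hist1 blocks and Hist2h4. In the main fit C and CK could hardly be told apart at the histone peaks, with a median difference of 0.0043. Here edgeR and DESeq2 called 0 at 0.01 (edgeR called 1.68% of all peaks), and 4 were higher at an unadjusted p under 0.05 (11.1% of all peaks) and 0 lower, with 2 higher without CK replicate 2, with total counts, with loess offsets or with GC content bins. The 4 included Hist1h2al (0.37 ± 0.12) and Hist3h2ba (0.17 ± 0.053). With loess offsets 3 histone peaks were also lower in CK than in C at this threshold. A median near 0 does not show that the genotypes are alike, and a single peak's SE was about 0.046.

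CK was also set against the C and K changes added together, which asks whether losing both genes departs from adding the single losses. The median over the 36 peaks was -0.0052 with values from -0.065 to 0.071 and a median SE of 0.067. Neither edgeR nor DESeq2 called a histone peak (edgeR called 0.0107% of all peaks), and 0 had an unadjusted p under 0.05 (3.73% of all peaks).

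**Figure D5:**
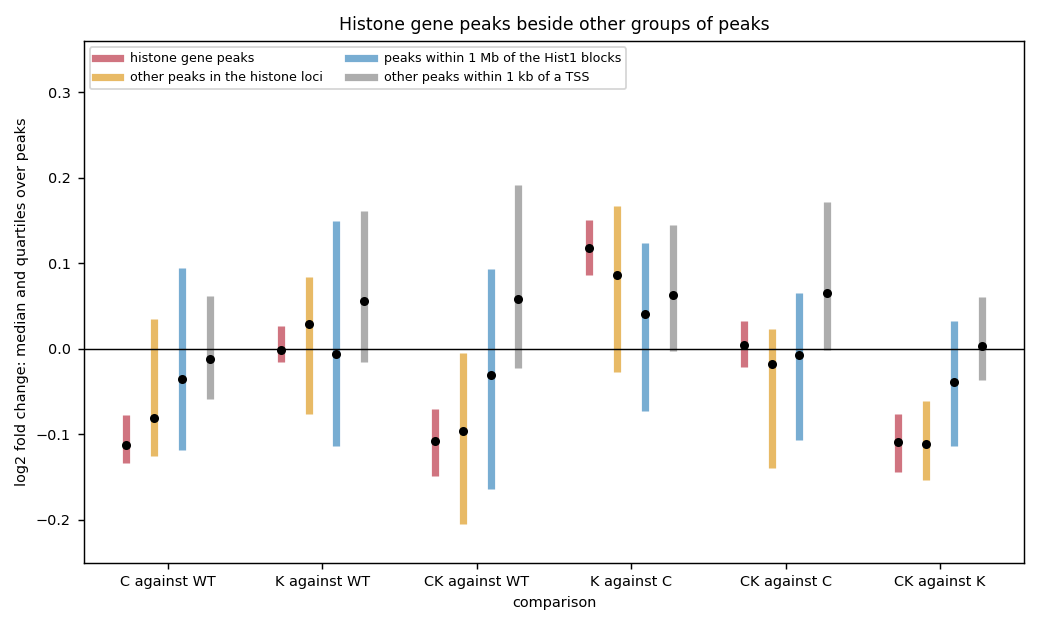
Median and quartiles of the log2 fold change over the histone peaks, the other peaks inside the histone loci, peaks within 1 Mb outside the Hist1 blocks, and other promoters, for 6 comparisons. The histone median is -0.11 for C against WT, CK against WT and CK against K, and other promoters have medians of -0.012, 0.058 and 0.0032 there.

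The neighbourhood of the genes was examined for the same pattern. Within the loci there were 36 further peaks not within 1000 bp of a histone gene start, 17 of them at the tRNA genes of block A. Their median log2 fold changes were -0.081 (C), 0.029 (K) and -0.097 (CK), with -0.11 for CK against K. The 17 tRNA gene peaks had -0.096, 0.030 and -0.091, with 14 of 17 below 0 in CK and 0 called. Among 127 peaks within 1 Mb outside blocks A and B the medians were -0.035, -0.0067 and -0.031. The 14 further peaks at no gene start had -0.081 (C), -0.045 (K) and -0.19 (CK). The 4 at starts of other genes went the other way, all above 0, with medians of 0.15, 0.12 and 0.16. Of the 36 further peaks, 23 were below 0 in C and 27 in CK. The shift was thus found at histone peaks and at most, but not all, other peaks inside the loci. Outside blocks A and B it was smaller, and these differences were not tested.

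Of the 36 further peaks 3 were called in CK (6.84% of all peaks) and 1 of these also in K (1.48%), and they were picked out after their values were seen. Accessibility at the start of Pom121l2 in block A rose in K (log2 fold change 0.51 ± 0.11 SE, adjusted p = 0.00673) and CK (0.62 ± 0.10, adjusted p = 0.000236). In CK a pair of peaks away from gene starts fell, one in block A (chr13:21851939-21853159, -0.56 ± 0.10, adjusted p = 0.000785) and one at Hist2 (chr3:96251188-96252475, -0.56 ± 0.095, adjusted p = 0.000302). The peak at the RefSeq start of Hist1h1d had 64.02 CPM in WT, with a log2 fold change of -0.18 in C and -0.18 in CK, neither called.

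Genes that serve the histone clusters were read from lists. Of 26 genes for the histone locus body, S phase regulation and 3′ end processing of histone messenger RNA, 23 had a promoter peak, with median log2 fold changes of -0.049 in C, 0.015 in K and 0.0058 in CK. Of the 23, 1 was called in CK (6.84% of all peaks): Hinfp, a zinc finger activator of H4 genes, fell in CK from 128 ± 2.89 CPM in WT (SD, n = 4) to 115 ± 2.77 (SD, n = 5), a log2 fold change of -0.16 ± 0.035 (SE, adjusted p = 0.0038). The NPAT gene was at 101 CPM in WT and differed by -0.0073 in CK, and Slbp, which encodes the stem-loop binding protein, by -0.057, neither called.

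Of 11 replication-independent histone variant genes, 10 had a peak and 1 was called in K (1.48% of all peaks) and CK (6.84%). H1fx, a linker histone variant, rose in K (0.30, adjusted p = 0.00468) and in CK (0.25, adjusted p = 0.00329), and the list's medians were -0.015, 0.10 and 0.11 in C, K and CK. All 28 histone chaperone and import genes had a peak, with medians of -0.030, 0.045 and 0.028. Hjurp, the chaperone of the centromeric H3 variant CENP-A, was the 1 of 28 called in C (0.16% of all peaks), K (1.48%) and CK (6.84%), and it fell in all 3 genotypes from 170 CPM in WT to 122 in C, 121 in K and 121 in CK (adjusted p = 7.91e-07, 5.73e-07 and 2.71e-07). The 3 comparisons share the same WT mice, so they are not independent.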

How the data were processed

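ATAC-seq of GC B cells from 17 mice (4 WT, 4 C, 4 K, 5 CK) was used. Reads had been aligned to mm10 and filtered of duplicates with nf-core atacseq 1.2.1, and what the authors deposited are raw counts of fragments in each consensus peak (featureCounts 2.0.1), not normalized. Libraries of sorted centroblasts and centrocytes were not analysed here. Peaks were annotated with GENCODE M21. Library totals were 17483706 to 21857738 fragments, with a median of 85 fragments per peak and library, which limits the precision of single peaks.

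Counts were normalized with edgeR 4.0.16 (TMM) in R 4.3.3. A single model held the 17 libraries, with a term for each genotype and no covariate. Each contrast was given edgeR's quasi-likelihood F test, and p-values were adjusted over 65483 peaks (Benjamini-Hochberg), with calls at an adjusted p of 0.01. A minimum of 10 counts summed over libraries removed 0 peaks. Log2 CPM used a prior count of 2. Scripts were tested on simulated data. DESeq2 1.42.0, other scalings, GC content bins, covariates, windows, thresholds, a block for the replicate number and leaving out each mouse were alternatives.

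The members, gene lists and tests were chosen with earlier results of these data known. Named peaks were the 6 highest and 6 lowest per kb in WT, the 3 of smallest p in each direction for C, K and CK against WT, those called in any contrast, all Hist2, Hist3 and Hist4 peaks, and listed genes that were called. A marker gene is not reported here. Replicates are separate mice. In C and WT same-numbered mice deviated together over all peaks (r of 0.14 to 0.22 in 4 of 4 pairs, and 6 of 8 mice correlated best with their own number), so the numbers were taken to pair these genotypes. The pairing comes from the data, since the labels do not say what a number marks. In both genotypes replicates 1 and 2 held Y-specific fragments, and replicates 3 and 4 held at most 1. Unlike numbers on the same side of this split also correlated (r of 0.17, 0.11, 0.098 and 0.059). Pairing of mice and this split therefore cannot be told apart. In the other comparisons r was over 0.1 in 1 to 3 of 4 pairs, which were not taken as paired.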

Additional observations from a re-analysis of the deposited data

Results flagged for a closer look

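Values of single mice were compared within each genotype for the 36 histone peaks and the sums by locus, in 176 groups of 4 or 5 mice. In 10 of them the highest or lowest mouse stood further from the others than Dixon's 95% critical value, and chance alone gives about 1 in 20 groups.

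Of the 10, 4 concerned WT replicate 1, all low. Its sum over block B was 1480 CPM, against 1605 to 1629 in the other WT mice. At Hist1h4i, Hist1h2ag and Hist1h2bj it had 147 CPM against 167 to 168, at Hist1h4f 35.7 against 40.3 to 41.0, and at Hist1h2ab and Hist1h3b 70.9 against 82.8 to 83.7. These peaks all lie in the Hist1 blocks.

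CK replicate 4 was high at the linker histone genes Hist1h1b (83.1 CPM, against 74.9 to 76.2) and Hist1h1c (122, against 109 to 112). CK replicate 3 was low at Hist1h4a, Hist1h3a and Hist1h1a (149.6 CPM, against 158 to 161). C replicate 3 was low at Hist2h2ab, Hist2h2ac and Hist2h2be (118 CPM, against 124 to 125). C replicate 1 was high in the Hist3 sum (122 CPM, against 119 in each other C mouse), and K replicate 4 was low at Hist3h2bb-ps and Hist3h2a (88.6 CPM, against 94.6 to 95.8).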

How the results depend on the processing

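The median log2 fold changes of the histone peaks moved by less than the spread between mice under every alternative run, though loess offsets gave -0.067 and the Y share as a covariate -0.077 in C, against -0.11. Leaving out single mice gave -0.15 to -0.091 in C, -0.030 to 0.017 in K and -0.14 to -0.081 in CK. Counts of calls were less stable. Lower in CK against WT, the count was 0, but 3 with DESeq2, 1 with DESeq2 size factors, total counts, loess offsets, GC content bins or a window of 5 kb, 2 with X and Y left out, 10 at an adjusted p of 0.05, and 0 to 6 when single mice were left out. Higher in K against C, it was 2 with DESeq2, 1 with GC content bins, 3 at 0.05, and 0 to 1 without single mice. At 0.05, K against WT had 1 higher and CK against WT 1 higher, the latter being 0 to 1 at 0.01 without single mice. With the Y share as a covariate, as planned, the count in CK was 0 and the smallest adjusted p 0.112. With a 0/1 covariate for Y-specific fragments, 23 were higher in K against C and 23 lower in CK against K at an unadjusted p under 0.05.

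With the replicate number as a block the counts were 9 lower in CK, 1 higher in K and 2 higher in K against C, and with block and GC content bins 12 lower in CK and 2 higher in K against C (at 0.05, 19 and 21 lower in CK). In C against WT, where the numbers were taken as pairs, the block changed no call at 0.01 (0 called, smallest adjusted p 0.0646). At an unadjusted p under 0.05 it gave 24 lower in C, against 18 without it. The C values given above come from the fit without the block. The block was fitted over all 17 libraries, K and CK included. In the other comparisons mice share only a number, and 2 to 4 of 8 correlated best with their own. Over all comparisons the median correlation was 0.10 for the same number and -0.0087 for others.

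Alternatives chosen after seeing the data were a 0/1 covariate for Y-specific fragments (2 lower in CK; at an adjusted p of 0.05, 11 lower and 1 higher in CK, 1 higher in K, 1 higher in CK against C and 3 higher in K against C) and leaving out single mice at 0.05. Lower in CK, the latter gave 18, 6, 3 and 0 without WT replicates 1 to 4, 8, 9, 12 and 11 without C replicates 1 to 4, 11, 11, 8 and 9 without K replicates 1 to 4, and 5, 7, 4, 13 and 11 without CK replicates 1 to 5. It gave 0 to 1 higher in CK, 0 to 2 in K, 1 to 4 in K against C and 0 to 1 in CK against C. The cause of these differences was not tested. With 4 or 5 mice per genotype, single histone peaks had a median SE against WT of 0.049 in C, 0.049 in K and 0.046 in CK (log2). The part of depth in this was not tested.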

Other observations

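The sums over the 27 Hist1 peaks were read separately for libraries with and without Y-specific fragments. With them, WT had 2319 and 2531 CPM, C 2285 and 2305, K 2494 to 2510 (3 mice) and CK 2215 and 2422. Without them, WT had 2553 and 2593, C 2251 and 2391, K 2455 (1 mouse) and CK 2154 to 2416 (3 mice). K exceeded every C mouse in both, and among mice without Y-specific fragments every C and CK mouse was below both WT mice. No test was run within these sets.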
